A study of Mus musculus with 8 samples.

Results

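Interferon-stimulated genes are the transcripts that cells switch on after type I or type III interferon reaches its receptor, and their products block the entry, copying and release of viruses. The 38 genes described here are textbook members of that response, taken by gene symbol from a count table of 23282 gene lines, and each symbol matched 1 line. All 38 had enough counts to enter the tests, which covered 14567 genes. RNA came from intestinal tissue of wild-type C57BL/6 mice. Which region of the gut was taken is not stated in the sources used here. Bovine colostrum exosomes, small membrane vesicles secreted with the first milk, were given by gavage at 1 mg per day for 3 weeks. Dextran sodium sulfate (DSS), a sulfated sugar polymer that injures the gut lining, was given at 3% for 6 days. The labels place 2 libraries in each of 4 groups: NC received buffer and no DSS, PC buffer and DSS, Ex exosomes and no DSS, and ExDSS exosomes and then DSS. The labels do not tie the libraries of a group to different animals. The p-values therefore reflect library-to-library spread, which could be technical.

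Virus-derived or misplaced nucleic acid is detected by sensors such as those encoded by Ddx58, Ifih1 and Zbp1, which leads to interferon production. Interferon then acts through JAK kinases on a complex with STAT2 and IRF9, which binds DNA at the interferon-stimulated response element (ISRE) near the starts of target genes. In the gut, type I interferon acts strongly on immune and stromal cells, while type III interferon acts mainly on the epithelium. Many of these genes also respond to interferon gamma.

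The ISRE was searched as GAAA, any 2 bases and GAAA again, on both strands, in windows from 250 bases before to 50 bases after the gene start (RefSeq, GRCm38.p6). Windows were available for 28 of the 38 genes. Of these, 13 (46.4%) held a match, against 1079 of 27025 genes (3.99%) with a window in the same table. The interferon gamma-activated sequence, searched as TTCNNNGAA on both strands, matched 6 of the 28 windows (21.4%), against 9.55% of all genes. The stretches below carry ISRE matches of genes whose levels are described next, 1 or more for most roles. Capitals mark the ISRE matches, and each stretch lies before the gene start and reads 5′ to 3′ on the strand of the gene.
Isg15, chr4:156200850-156200921, minus strand: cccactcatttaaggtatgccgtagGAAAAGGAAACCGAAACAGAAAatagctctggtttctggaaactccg
Ifit1, chr19:34640760-34640838, plus strand: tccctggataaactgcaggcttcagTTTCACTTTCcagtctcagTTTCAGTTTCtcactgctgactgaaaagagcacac
Ifit3, chr19:34583348-34583441, plus strand: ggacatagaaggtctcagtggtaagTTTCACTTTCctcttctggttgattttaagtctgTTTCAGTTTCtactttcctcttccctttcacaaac
Bst2, chr8:71537562-71537627, minus strand: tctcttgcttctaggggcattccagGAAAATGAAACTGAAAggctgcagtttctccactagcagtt
Rsad2, chr12:26456538-26456597, minus strand: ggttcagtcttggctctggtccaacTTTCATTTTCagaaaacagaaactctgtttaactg
Oas3, chr5:120777700-120777759, minus strand: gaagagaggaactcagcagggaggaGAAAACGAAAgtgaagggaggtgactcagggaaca
In Isg15, 3 matches overlapped in 1 run of 22 bases. Ifit1 and Ifit3 each held 2 separate matches in the opposite orientation, and Bst2 held 2 that overlapped. A match describes these letters in this window and is not evidence of binding.

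Total counts were 8813622 to 12308537 in 7 libraries and 1163147 in Ex 2. In Ex 2, ribosomal precursor RNA (Rn45s) took 53.5% of counts, the epithelial marker Epcam stood at 5.96 CPM (the usual depth-scaled count) against 552 to 696 in the other libraries, and the 38 genes received 57 counts in all. Levels below are CPM scaled by edgeR's TMM factors. A library with 0 counts of a gene allows up to 0.199 to 0.412 CPM (3 counts), and 4.47 CPM in Ex 2, and such limits cover counting error only. Pancreatic acinar genes took 8.18% of counts in NC 2 and 17.9% in ExDSS 1, and at most 0.0538% elsewhere. Markers of inflammation went against the labels: the summed level of 5 neutrophil genes, S100a8 and S100a9 among them, reached 2306 and 2129 in NC and 2897 and 1834 in ExDSS (CPM), but only 8.44 and 7.78 in PC and 6.85 and 5.96 in Ex. S100a8, S100a9 and Retnlg made up most of the NC and ExDSS sums. Cxcr2 had 11.7 and 2.39 CPM in NC, 1.65 and 8.72 in ExDSS, and at most 0.307 in PC and Ex. Csf3r had 2.59 and 4.20 CPM in NC, 0.0728 and 0 in PC, and 0 in Ex and ExDSS. Groups are therefore named as the libraries labelled NC, PC, Ex and ExDSS, and whether labels were exchanged was not tested. Fewer cells of a type and less RNA per cell cannot be told apart in bulk tissue.

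The 38 genes together were high in the libraries labelled NC and ExDSS and low in those labelled PC and Ex. Their summed level was 4650 and 6877 CPM in NC, 869 and 861 in PC, 931 and 85.0 in Ex, and 7681 and 8699 in ExDSS. They took between 0.0049% of counts in Ex 2 (95% Clopper-Pearson interval 0.00371 to 0.00635) and 0.96% in ExDSS 2 (0.954 to 0.965). The 3 membrane proteins among them summed to 2193 and 4277 CPM in NC, 225 and 280.3 in PC, 316 and 25.3 in Ex, and 4086 and 4576 in ExDSS. The highest level of a gene was in NC 1 for 16 genes, in ExDSS 2 for 10, in ExDSS 1 for 7 and in NC 2 for 5, and never in a library labelled PC or Ex. The summed neutrophil level above was likewise high in NC and ExDSS.

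**Figure D1:**
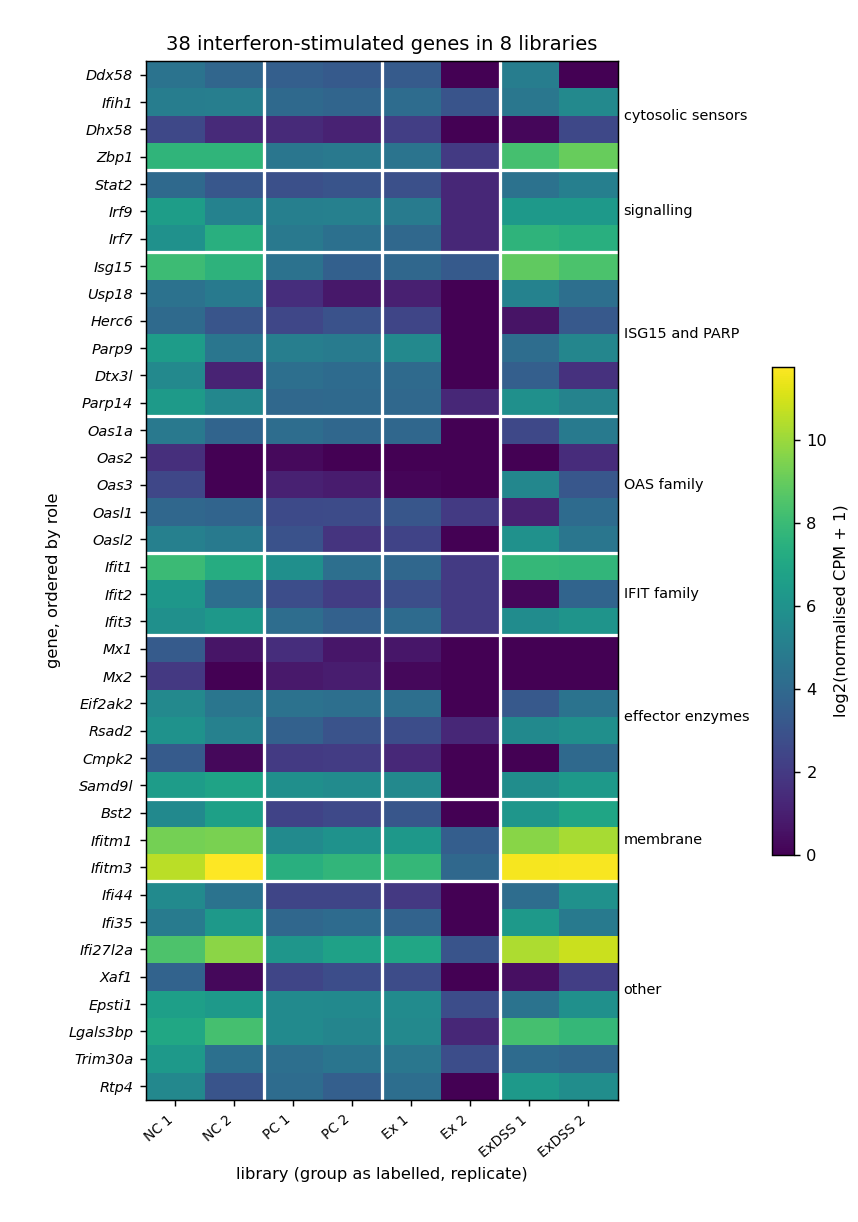
Heat map of log2(normalised CPM + 1) of the 38 genes (lines, ordered by role) in the 8 libraries (columns). The columns of NC and ExDSS are brighter than those of PC and Ex 1 for most genes, and Ex 2 is dark throughout.

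Among the cytosolic nucleic acid sensors, Zbp1 had the widest difference between libraries and the receptor genes Ddx58 and Ifih1 far smaller ones. Zbp1 (chr2:173206612-173218922), a sensor of Z-form nucleic acid that can trigger cell death, stood at 208 and 210.3 CPM in NC, 23.9 and 25.7 in PC, 22.4 and 2.98 in Ex, and 319 and 531 in ExDSS. Both ExDSS libraries lay above both NC libraries, and these 4 lay above all PC and Ex libraries. Ifih1 (chr2:62595793-62646255) encodes MDA5, a receptor for long double-stranded RNA, and had 30.7 and 31.9 CPM in NC, 15.5 and 13.3 in PC, 17.1 and 7.45 in Ex, and 24.4 and 45.6 in ExDSS. NC and ExDSS overlapped, and both lay above PC and Ex. Ddx58, which encodes the RNA sensor RIG-I, had 30.5 CPM in ExDSS 1 and 0 in ExDSS 2. The regulator Dhx58 stayed at or below 4.78 CPM in every library.

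The transcription factors that carry the interferon signal were all at their highest in NC or ExDSS. Irf7 (chr7:141263183-141266424), the factor that amplifies interferon production, had 61.5 and 169.7 CPM in NC, 25.9 and 19.3 in PC, 14.6 and 1.49 in Ex, and 202 and 169.6 in ExDSS. The 2 NC libraries differed by more than the ExDSS libraries did, and neither reached down to PC or Ex. Irf9 (chr14:55603985-55610030), the DNA-binding partner of STAT2, had 94.1 and 36.1 CPM in NC, 33.2 and 33.8 in PC, 28.5 and 1.49 in Ex, and 80.7 and 82.6 in ExDSS. Here NC 2 lay just above both PC libraries. Stat2 was above every other library in ExDSS, at 20.6 and 33 CPM.

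Isg15 and the genes around its protein tag showed 2 patterns. Isg15 (chr4:156199424-156200818), a ubiquitin-like protein that is joined to other proteins, had 272 and 193 CPM in NC, 20.7 and 11.2 in PC, 14.3 and 8.94 in Ex, and 481 and 345 in ExDSS. The order ExDSS, NC, then PC and Ex held without overlap. Usp18 (chr6:121245906-121270917), the protease that removes ISG15 and restrains the interferon receptor, had 20.4 and 26.6 CPM in NC, 1.89 and 0.707 in PC, 1.02 and 0 in Ex, and 36.0 and 18.8 in ExDSS. NC and ExDSS overlapped, and all PC and Ex libraries were at or below 1.89 CPM. Parp14 resembled Usp18, with NC and ExDSS between 37.5 and 83.8 CPM and all other libraries at or below 15.2. In contrast Herc6, the ISG15 ligase of mice, and Parp9 and Dtx3l, whose proteins form a complex, differed strongly between libraries of the same group: Dtx3l had 45.0 CPM in NC 1 and 1.24 in NC 2. Parp9 and Dtx3l overlap on opposite strands of chromosome 16, so their reads may be shared.

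The oligoadenylate synthetases, which make the messenger that activates RNase L, were low and uneven. Oasl2 (chr5:114896934-114912245), a related protein, had 33.9 and 27.7 CPM in NC, 6.77 and 2.43 in PC, 4.19 and 0 in Ex, and 60.6 and 23.4 in ExDSS. NC and ExDSS overlapped and both lay above PC and Ex. Oas3 (chr5:120753098-120777659) had 4.65 and 0 CPM in NC, 1.09 and 0.864 in PC, 0.102 and 0 in Ex, and 42.2 and 8.30 in ExDSS. It was the gene of this family whose ExDSS libraries exceeded all others, and NC overlapped PC. Oas2 was at or below 1.99 CPM in every library, with no count in Ex. Oas1a is uncertain, since the last 300 bases of its transcript are 96.7% identical to those of Oas1g.

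The IFIT genes, whose proteins bind foreign RNA, lie close together on chromosome 19. Ifit1 (chr19:34640889-34650009) had 257 and 155 CPM in NC, 57.1 and 18.6 in PC, 14.3 and 2.98 in Ex, and 227 and 212 in ExDSS. Ifit3 (chr19:34583529-34588982) had 58.9 and 75.4 CPM in NC, 17.8 and 11.6 in PC, 16.4 and 2.98 in Ex, and 52.0 and 68.3 in ExDSS. In both genes NC and ExDSS overlapped and lay above PC and Ex. Ifit2, their neighbour, broke this pattern in ExDSS, with 0.137 CPM in ExDSS 1 and 12.8 in ExDSS 2, against 74.3 and 18.1 in NC.

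The effector enzymes divided. Rsad2 (chr12:26442743-26456452) encodes viperin, which makes a chain-terminating nucleotide, and had 63.9 and 34.7 CPM in NC, 11.7 and 6.99 in PC, 5.83 and 1.49 in Ex, and 47.4 and 56.3 in ExDSS. NC and ExDSS overlapped and lay above the rest. Mx1 (chr16:97447035-97462906), a dynamin-like GTPase of which C57BL/6 mice carry a non-functional allele, had 9.43 and 0.573 CPM in NC, 1.89 and 0.628 in PC, 0.613 and 0 in Ex, and 0 in both ExDSS libraries. Mx2 was likewise without a count in ExDSS, where the other 36 genes had at least 1. Against the floor of 3 counts per library, Mx1 was at least 3.80-fold lower in ExDSS than in PC. It was at least 15.1-fold lower than in NC, a mean set by NC 1. These bounds cover counting error only, and the ExDSS libraries lay below both PC libraries for 45.4% of all genes. Cmpk2, which lies beside Rsad2, had 15.1 CPM in ExDSS 2 and 0 in ExDSS 1. Eif2ak2, the kinase PKR, and Samd9l varied less, with levels of 8.93 to 45.2 and 45.3 to 113 CPM outside Ex 2, where both were at 0.

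The membrane proteins showed the clearest separation of any role. Ifitm1 (chr7:140967429-140969827), which hinders virus entry, had 630.4 and 674 CPM in NC, 48.0 and 63.6 in PC, 76.0 and 10.4 in Ex, and 833 and 1194 in ExDSS. ExDSS exceeded NC without overlap, and NC exceeded PC and Ex. Bst2 (chr8:71534262-71537437), tetherin, which holds budding virus at the cell surface, had 47.1 and 102 CPM in NC, 4.22 and 5.03 in PC, 7.87 and 0 in Ex, and 72.9 and 122 in ExDSS. NC and ExDSS overlapped here. Ifitm3 had 1515 and 3502 CPM in NC and 3181 and 3260.4 in ExDSS, against at most 232 in PC and Ex.

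The remaining genes have mixed functions. Ifi27l2a (chr12:103433873-103443680), a mitochondrial protein of the ISG12 family, had 362 and 834 CPM in NC, 72.8 and 107 in PC, 123 and 7.45 in Ex, and 1292 and 1811 in ExDSS. ExDSS exceeded NC without overlap. The gene overlaps Ifi27 on the opposite strand, which had 8517 counts over all libraries against 48770 for Ifi27l2a. Ifi44 (chr3:151730923-151749959), a cytoplasmic antiviral protein, had 48.7 and 21.3 CPM in NC, 4.44 and 4.48 in PC, 2.86 and 0 in Ex, and 17.3 and 60.6 in ExDSS. NC and ExDSS overlapped and both lay above PC and Ex. Rtp4 was at 79.1 and 53.7 CPM in ExDSS and at or below 43.6 elsewhere. Trim30a, a regulator of Toll-like receptor signalling, went the other way, with 16.2 and 14.3 CPM in ExDSS below both PC and both NC libraries.

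**Figure D2:**
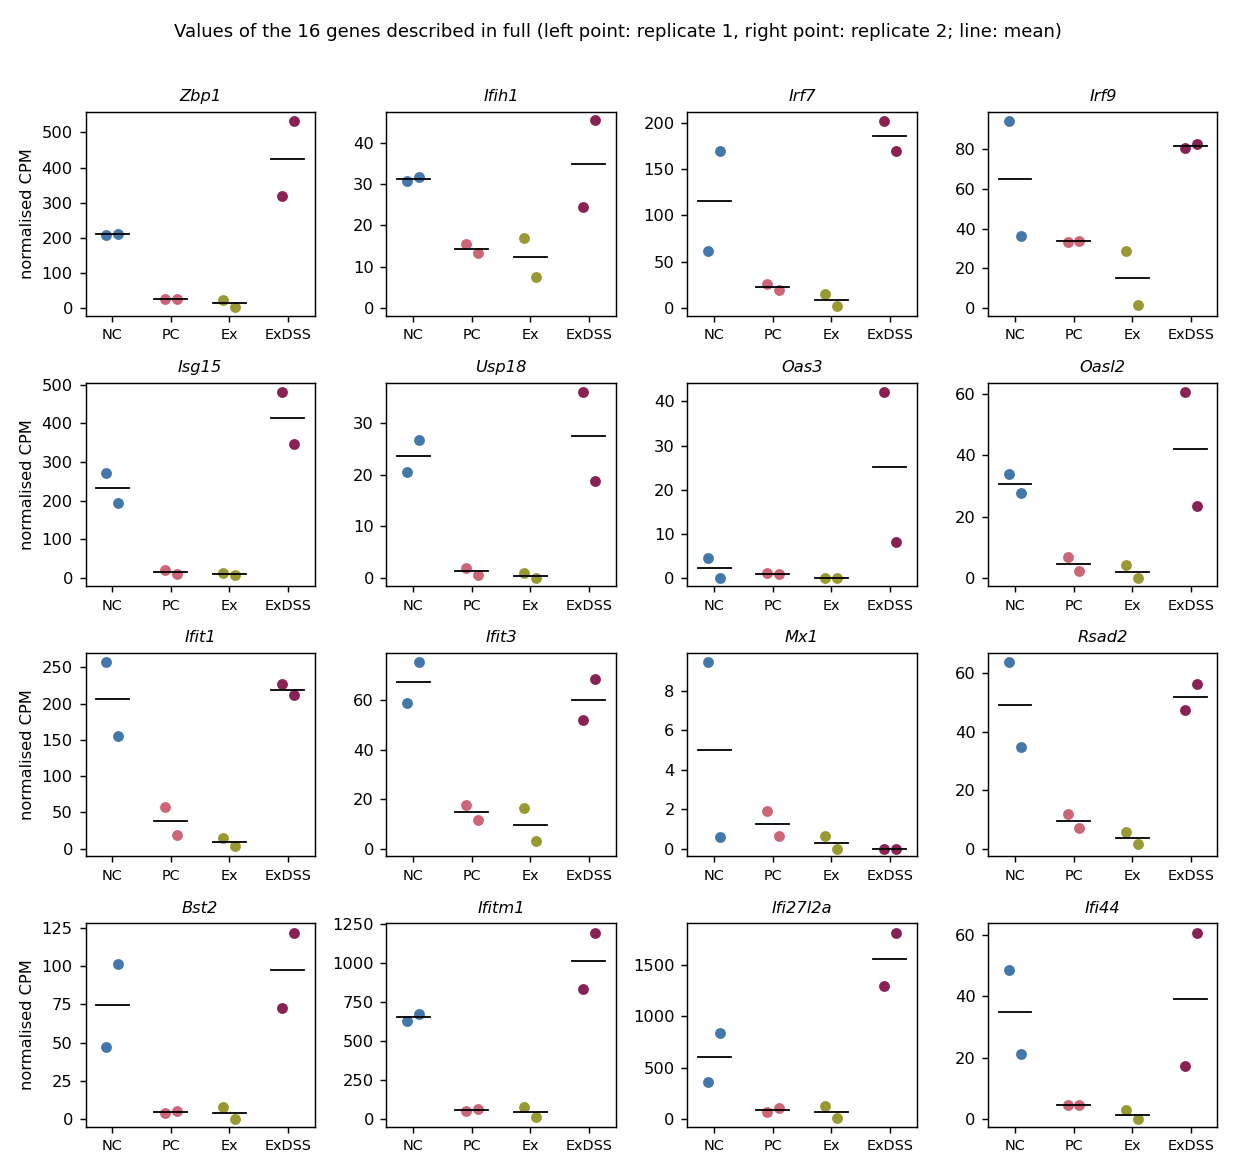
Normalised CPM of the 16 genes given for each library (vertical axis, linear, a separate scale for each gene) by group; points are libraries and lines the mean of 2. In 14 of the panels the NC and ExDSS points lie above the PC and Ex points, but not in Oas3 and Mx1. The 16 genes were chosen within each role by the smallest p in a joint test over the same groups. The count of panels therefore does not describe the other genes.

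The comparison of the libraries labelled PC and NC addresses DSS without exosomes. All 38 genes had a lower fitted level in PC, with a median log2 fold change of -1.57, against 0.10 over all genes tested. Isg15 was at 16 ± 6.73 CPM in PC and 232 ± 55.7 in NC (SD, n = 2), a log2 fold change of -3.86 (SE 1.37, the fold change divided by the root of the test statistic F). Usp18 (-4.16), Bst2 (-4.0), Ifitm1 (-3.55) and Zbp1 (-3.08) were close to it, while Irf9 (-0.96) and Ifih1 (-1.12) had small values. By role, the median ran from -0.87 for the effector enzymes to -3.71 for the membrane proteins. The PC libraries lay below both NC libraries for 26 of the 38 genes, against 23.6% of all genes, and above them for 0, against 31% of all genes. None of the 38 was called by edgeR's quasi-likelihood test, which called 0% of all genes (adjusted p = 1 for each of them). At an unadjusted p under 0.05 stood 6 of the 38 (15.8%) and 363 of all genes (2.49%), and limma-voom called 0 (0.0137% of all genes). DESeq2 called 1 (Isg15) of the 34 to which it gave an adjusted p, against 0.674% of all genes. Without NC 1, 27 genes were lower and 11 higher in PC, with a median of -1.10. The part of the neutrophil and macrophage cells in this difference was not tested.

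Between the libraries labelled ExDSS and PC, which address exosomes before DSS, 29 of the 38 genes had a higher fitted level in ExDSS and 9 a lower one. The median log2 fold change was 1.74, against -0.51 over all genes. Isg15 had 413 ± 96.2 CPM in ExDSS (SD, n = 2) and a log2 fold change of 4.69 (SE 1.42). It was followed by Oas3 (4.67), Bst2 (4.39), Usp18 (4.38), Ifitm1 (4.18), Ifi27l2a (4.11) and Zbp1 (4.10). The IFIT genes Ifit1 (2.53) and Ifit3 (2.03) and the factors Irf7 (3.04) and Irf9 (1.29) had smaller values. Of the 9 genes in the other direction, Mx1 and Mx2 had no count in ExDSS, Dtx3l was at -1.43 and Xaf1, a promoter of cell death, at -1.35, and Herc6, Parp9, Eif2ak2, Epsti1 and Trim30a lay between -0.43 and -0.06. The ExDSS libraries lay above both PC libraries for 21 genes, against 18.9% of all genes, and below them for 5 (Dtx3l, Mx1, Mx2, Trim30a and Xaf1), against 45.4%. None was called by edgeR's quasi-likelihood test, which called 0% of all genes (smallest adjusted p = 0.228). At an unadjusted p under 0.05 stood 10 of the 38 (26.3%) and 2763 of all genes (19.0%). DESeq2 called 7 (10.2% of all genes) and limma-voom 3 (7.96%). Without ExDSS 2, 22 genes were higher and 16 lower. The summed neutrophil level was 1834 to 2897 CPM in ExDSS and at most 8.44 in PC, and its part in these values was not tested.

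**Figure D3:**
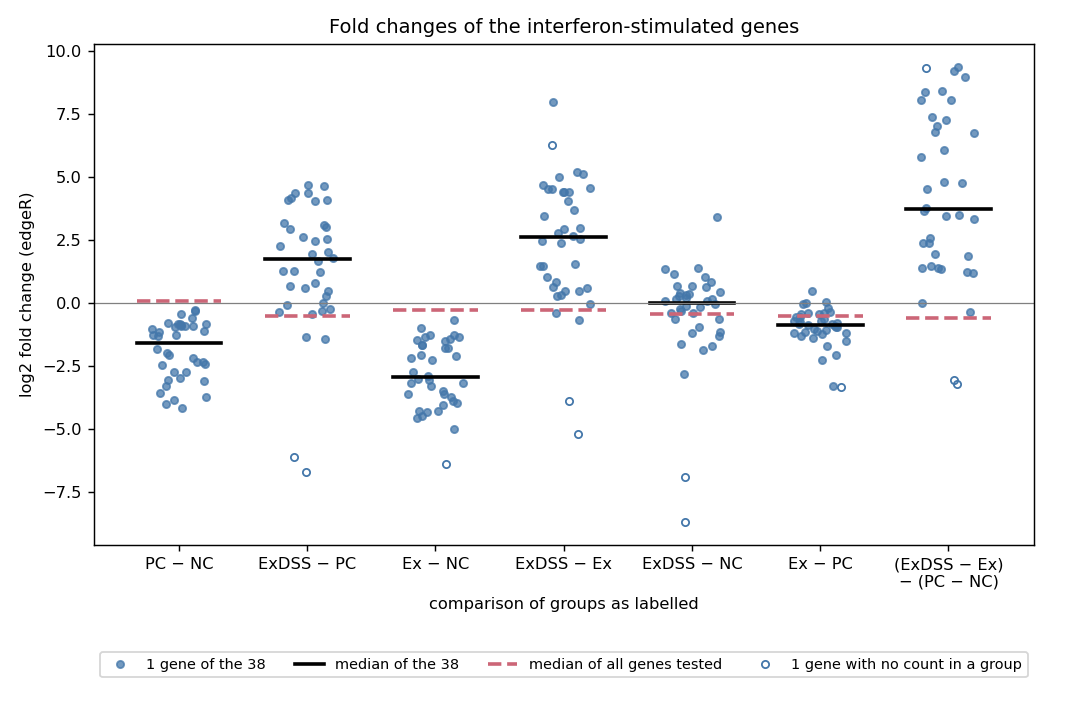
Log2 fold changes fitted with edgeR (vertical axis) of each of the 38 genes in 7 comparisons of the groups as labelled; black lines are the medians of the 38 and dashed lines those of all genes tested, and open circles are genes with no count in a group, whose fitted value is no estimate of size. The medians of the 38 lie at -1.57 for PC against NC, 1.74 for ExDSS against PC and 2.62 for ExDSS against Ex.

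Exosomes without DSS are addressed by the libraries labelled Ex and NC. All 38 genes had a lower fitted level in Ex, with a median log2 fold change of -2.94, against -0.27 over all genes. For Oas2, with no count in Ex, the NC mean of 0.996 CPM lay below the mean Ex floor of 2.39 CPM, so no direction can be given. Isg15 stood at 11.6 ± 3.80 CPM in Ex (SD, n = 2), a log2 fold change of -4.30 (SE 1.40), beside -4.49 for Ifit1 and -5.01 for Usp18. The Ex libraries lay below both NC libraries for 26 genes, against 22.9% of all genes, and above them for 0, against 11.1%. With Ex 2 left out, so that Ex 1 was assumed to vary like the other groups, the median was -2.09, with 37 of the genes lower and an all-gene median of 0.05. None was called by edgeR's quasi-likelihood test, which called 0% of all genes (smallest adjusted p = 0.930). At an unadjusted p under 0.05 stood 11 of the 38 (28.9%) and 774 of all genes (5.31%), and limma-voom called 0 (0% of all genes). DESeq2 called 6 of the 31 to which it gave an adjusted p, against 3.55% of all genes. With Ex 1 left out instead, edgeR called 15 of the 38 and 10.4% of all genes, and the all-gene median was -3.97.

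The libraries labelled ExDSS and Ex address DSS in mice given exosomes. Fitted levels were higher in ExDSS for 33 genes and lower for 5, with a median log2 fold change of 2.62, against -0.29 over all genes. The log2 fold change was 5.13 (SE 1.46) for Isg15, 5.22 for Usp18, 5.0 for Zbp1 and 4.58 for Ifit1, and Oas3, with 1 count in Ex, allows no ratio. The 5 in the other direction were Mx1, Mx2, Dtx3l (-0.40), Xaf1 (-0.65) and Trim30a (-0.03). Mx1 and Mx2 had no count in ExDSS, and their Ex means (0.307 and 0.102 CPM) lay below the mean ExDSS floor of 0.332 CPM. Oas2, fitted as higher, had no count in Ex and an ExDSS mean of 0.922 CPM, below the mean Ex floor of 2.39 CPM. For these genes no direction can be given. The ExDSS libraries lay above both Ex libraries for 22 genes, against 17% of all genes, and below them for 0, against 17%. Without Ex 2 the median was 1.93, with 29 genes higher and 9 lower. None was called by edgeR's quasi-likelihood test, which called 0% of all genes (smallest adjusted p = 0.207). At an unadjusted p under 0.05 stood 14 of the 38 (36.8%) and 2881 of all genes (19.8%). DESeq2 called 14 (14% of all genes) and limma-voom 2 (3.47%). Without Ex 1, edgeR called 15 of the 38 and 12.2% of all genes, and the all-gene median was 1.98.

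The interaction asks whether the DSS difference itself changed with exosomes, as the ExDSS against Ex fold change minus the PC against NC one. It was positive for 35 of the 38 genes, with a median of 3.73 on the log2 scale, against -0.58 over all genes. Isg15 had 8.99 (SE 2.0), the value nearest the threshold (edgeR's quasi-likelihood test, adjusted p = 0.0537). Over 19 other settings its value ran from 8.33 to 9.62, and whether it passed the threshold depended on the setting. These settings include fits with libraries left out. The fit without NC 2, ExDSS 1 and Ex 2, added after seeing the data, is among them. Zbp1 (8.07), Bst2 (8.42), Ifitm1 (8.08) and Ifit1 (7.02) followed, with adjusted p of 0.0935, 0.109, 0.111 and 0.122 by edgeR. Mx1 and Mx2, with no count in ExDSS, and Xaf1 (-0.37) had negative fitted values. None of the 38 was called by edgeR, which called 42 genes (0.288%). At an unadjusted p under 0.05 stood 17 of the 38 (44.7%) and 2741 of all genes (18.8%). DESeq2 called 15 (11.3% of all genes) and limma-voom 6 (2.24%). The neutrophil sums given above had the same arrangement over the groups, and their part was not tested.

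Between the 2 groups with high levels, ExDSS and NC, 19 genes were higher and 19 lower, with a median log2 fold change of 0.02, against -0.41 over all genes. With total counts alone as the scaling, 14 were higher and 24 lower. The ExDSS libraries lay above both NC libraries for 7 genes, against 7.59% of all genes: Ifi27l2a, Ifitm1, Isg15, Oas3, Rtp4, Stat2 and Zbp1. They lay below for 6, against 22.7%: Eif2ak2, Epsti1, Ifit2, Mx1, Samd9l and Trim30a. No gene of the 38 was called by edgeR (0% of all genes called, smallest adjusted p = 0.350), and DESeq2 (5.69% of all genes) and limma-voom (2.95%) called 0. At an unadjusted p under 0.05 stood 2 of the 38 (5.26%), Mx1 and Mx2, and 1800 of all genes (12.4%).

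Between the 2 groups with low levels, Ex and PC, 36 genes had a lower fitted level in Ex and Dhx58 and Oasl1 a higher one. The median was -0.86, against -0.50 over all genes. For Oas2, with no count in Ex, the PC mean of 0.109 CPM lay below the mean Ex floor of 2.39 CPM, so no direction can be given. Without Ex 2, the median was -0.14, with 15 genes higher and 23 lower, so that the remaining Ex library stood close to PC. With upper-quartile scaling, 6 were higher and 32 lower. The Ex libraries lay below both PC libraries for 16 genes, against 27.3% of all genes, and above for 0, against 8.28%. None was called by edgeR (0% of all genes, adjusted p = 1), 0 stood at an unadjusted p under 0.05, against 218 of all genes, and limma-voom called 0 (0% of all genes). DESeq2 called 0 of the 16 to which it gave an adjusted p, against 1.39% of all genes.

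Libraries of 1 group differed widely for some of the 38 genes. In NC, 4 of the 34 genes with at least 5 CPM in 1 library were over 8-fold apart (against 14.4% of all genes), and all 4 were higher in NC 1: Cmpk2, Dtx3l, Mx1 and Xaf1. In PC this held for 0 of 30 genes (0.097% of all genes). In Ex it held for 13 of 28, all higher in Ex 1 (48.3% of all genes). In ExDSS it held for 5 of 33 (35.1% of all genes), namely Ddx58, higher in ExDSS 1, and Cmpk2, Herc6, Ifit2 and Oasl1, higher in ExDSS 2. The abundant members Isg15, Zbp1, Ifitm1 and Ifit1 were not among them.

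**Figure D4:**
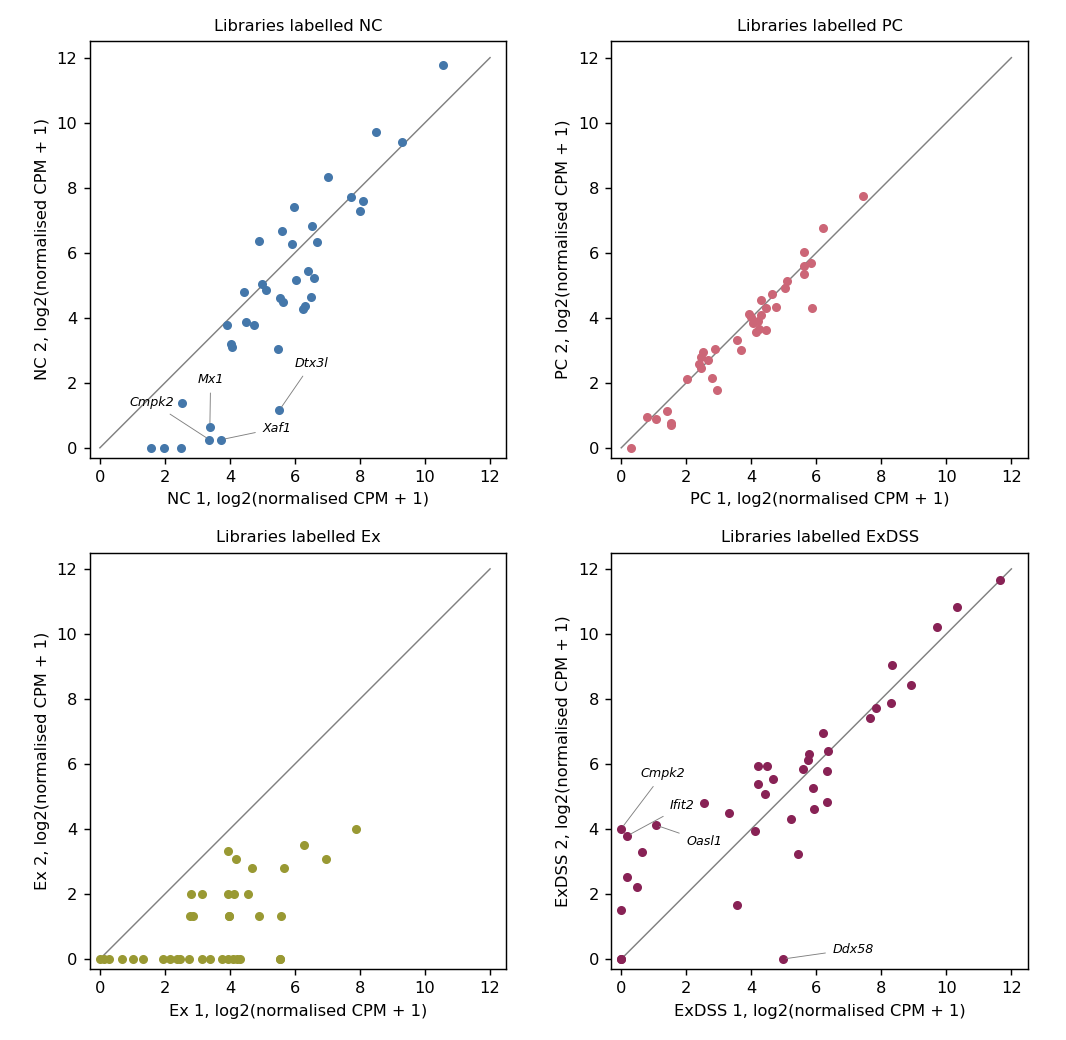
Replicate 1 (horizontal axis) against replicate 2 (vertical axis) of each group, in log2(normalised CPM + 1), with 1 point for each of the 38 genes and the line of equality. Points follow the line in PC, lie below it in Ex, and scatter at low levels in NC and ExDSS, where the 4 genes farthest from it are named.

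The interferons themselves gave little signal. Ifnb1, 4 interferon alpha genes, Ifnk, Ifne, Ifnl2 and Ifnl3 had no count in any library, and Ifng, interferon gamma, had 11.1 and 3.91 CPM in NC and 0 in all other libraries. Of 15 receptor and signalling genes, 11 had a lower and 4 a higher fitted level in PC than in NC, and 8 a higher and 7 a lower one in ExDSS than in PC; 0 were called in any comparison by edgeR, and percentages of all genes called are those above. The type I receptor chain Ifnar1 had 15.5 and 5.73 CPM in NC, 9.10 and 9.66 in PC, 10.1 and 0 in Ex, and 0.137 and 0.335 in ExDSS, so that both ExDSS libraries lay below both NC and both PC libraries. Ifnlr1, the type III receptor chain, had 3.58 and 0.191 CPM in NC, 4.44 and 4.63 in PC, 3.68 and 0 in Ex, and 0.137 and 0 in ExDSS, so that NC 2 was nearly as low as ExDSS. Socs3, a feedback inhibitor, was uneven within groups, with 200.4 and 2.19 CPM in NC.

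Of 16 upstream genes tested, 14 had a lower fitted level in PC than in NC, and 10 a higher one in ExDSS than in PC, and edgeR called 0. Tmem173, which encodes the DNA-sensing adaptor STING, had 87.7 and 85.8 CPM in NC, 7.93 and 13.0 in PC, 12 and 0 in Ex, and 151 and 136 in ExDSS. Trex1, a nuclease that clears stray DNA, had 23.5 and 20.3 CPM in NC, 4.95 and 6.21 in PC, 2.86 and 0 in Ex, and 91.2 and 34.7 in ExDSS. Adar, which edits double-stranded RNA, had 149 CPM in ExDSS 1 and 26.6 in ExDSS 2, and at most 29.2 elsewhere.

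The 16 genes linked to interferon gamma had a median log2 fold change of -3.57 for PC against NC and 3.39 for ExDSS against PC, with 14 of them lower in PC than in NC and 15 higher in ExDSS than in PC, and edgeR called 0 in either. In the interaction 3 of the 16 were called by edgeR's quasi-likelihood test, all positive: Cxcl10 (adjusted p = 0.00920), Gbp5 (0.0306) and Cxcl9 (0.0396). With 1 library left out, which also removes a residual degree of freedom, edgeR called 0 of all genes in the interaction without NC 1 or NC 2, 1 without PC 1, 7 to 29 without Ex 2, ExDSS 1, ExDSS 2 or PC 2, and 1663 without Ex 1. Cxcl10, a T cell attractant, had 318 and 224 CPM in NC, 1.16 and 0.628 in PC, 0.613 and 1.49 in Ex, and 564 and 33.6 in ExDSS. Gbp5, a guanylate-binding protein of inflammasome defence, had 145 and 73.7 CPM in NC, 2.98 and 3.06 in PC, 2.56 and 0 in Ex, and 153 and 75.3 in ExDSS. In both, all NC and ExDSS libraries lay above all PC and Ex libraries.

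Markers of other immune cells followed the 38 genes in part. Summed over 8 monocyte and macrophage markers, levels were 986 and 2494 CPM in NC, 257 and 346 in PC, 326 and 14.9 in Ex, and 2397 and 3287 in ExDSS. C1qa (1342 and 1542 CPM in ExDSS) and C1qb (698 and 1070.5) made up most of it in NC and ExDSS, while Lyz2 had 117 and 6.68 in NC, 46.6 and 76.4 in PC, and 34.5 and 62.2 in ExDSS. C1qc was lower in NC 2 (52.0) and ExDSS 1 (42.6) than in PC 2 (59.7). The 7 T and NK cell markers summed to 21.7 and 35.8 CPM in NC, 6.41 and 7.85 in PC, 6.85 and 0 in Ex, and 37.9 and 51.2 in ExDSS. Single genes carried these sums: Nkg7 gave 29.9 CPM in ExDSS 1, with Cd3e, Cd8a, Cd4 and Klrd1 at 0, and Cd4 gave 27.5 in NC 2, with Cd3e, Cd8a and Nkg7 at 0. Klrd1 had 1.16 and 2.43 CPM in PC and 0 in both ExDSS libraries. Of 6 markers of plasmacytoid dendritic cells, a main source of type I interferon, Siglech, Ccr9 and Cox6a2 were at 0 in both ExDSS libraries and at most 4.87 CPM elsewhere. The other markers did not share this: Irf8 had 119 and 20.5 CPM in ExDSS, and Spib 0 and 7.71. Klk1 had 1608 and 1180.5 CPM in ExDSS. It stood at 782 to 2117 CPM in all libraries but Ex 2 (8.94), where Epcam was low too. Whether the Klk1 counts came from plasmacytoid dendritic cells was not tested. Epithelial markers summed to 3024 to 4320 CPM in all libraries but Ex 2 (41.7). The part of these cells in the levels of the 38 genes was not tested.

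**Figure D5:**
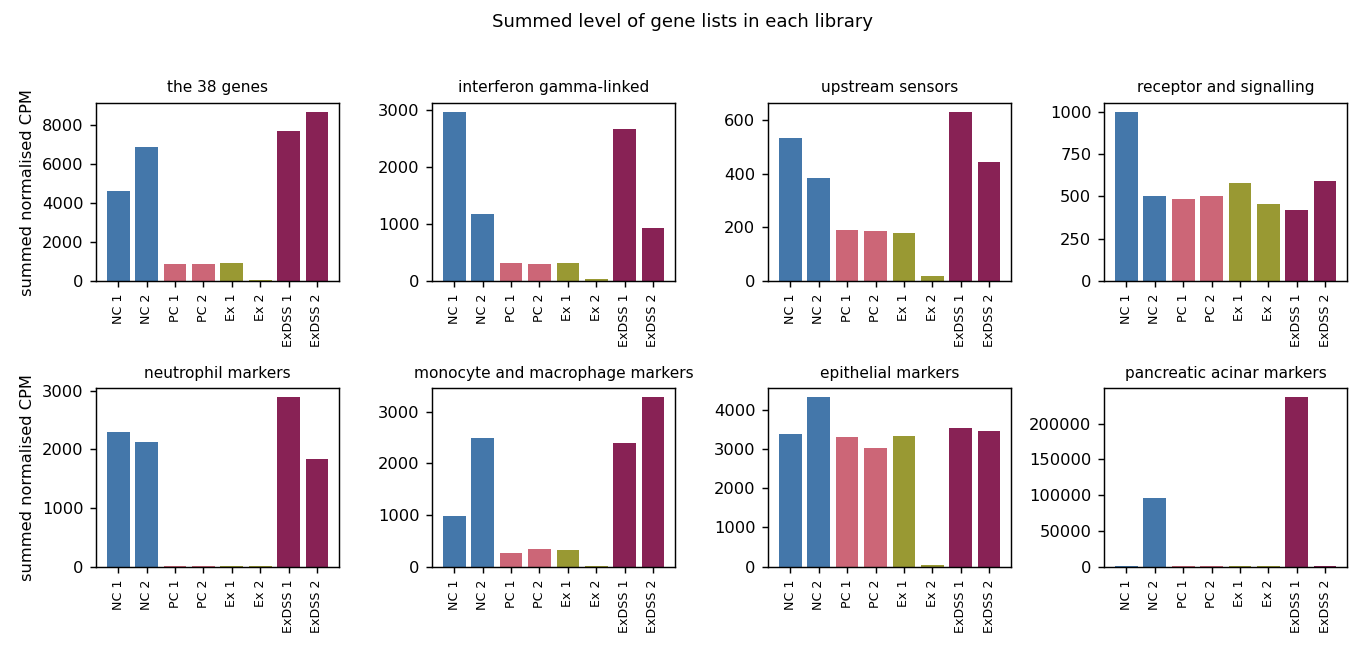
Summed normalised CPM (vertical axis, a separate scale for each panel) of the 38 genes, of the other interferon pathway lists and of cell type markers in each library, coloured by group. The neutrophil and macrophage panels are high in NC and ExDSS, as is that of the 38 genes. The epithelial sum spans 3024 to 4320 CPM apart from Ex 2, and single epithelial markers differ more.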

How the data were processed

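QuantSeq 3' libraries of total RNA were counted per gene. The values analysed are whole-number read counts deposited as 1 table by the authors, who used Bowtie2, bedtools, edgeR and the build mm9, per the submitters' processing notes (versions not given in the sources used here). Gene positions in the table were compared with RefSeq GRCm38.p6: of 28 members with a promoter window, 23 had the same start, so positions are printed as GRCm38. The sources used here do not state whether reads were counted by strand. The table has 27 lines named by a date (0.135% of counts), which were kept and are no gene described here.

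The tool was edgeR 4.0.16 (R 4.3.3, with limma 3.58.1 for the voom alternative), with TMM scaling, filterByExpr (minimum count 10, total 15), and robust quasi-likelihood F tests with 1 coefficient per group over all 8 libraries (4 residual degrees of freedom, common dispersion 1.17). The Benjamini-Hochberg adjustment ran over 14567 genes, and genes were called under an adjusted p of 0.05. Normalised CPM are counts divided by the TMM-scaled total of tested genes. The printed SE is no model standard error. Scripts were tested on simulated data. Alternatives included DESeq2 1.42.0 and limma-voom.

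The 38 members, the role groups, the pathway lists and the cell type markers were chosen with earlier results of these data known. In each role, the 2 members with the smallest p in a joint test over the 4 groups are given for each library with fold changes. Others are given by ranges and counts, or named where they lacked a count, lay outside the range or went against most members. In each pathway list the 3 genes with the smallest joint p were named. The values of 1 pathway gene are not reported here. Similar transcript ends were searched with BLAST+ 2.17.0 (at least 95% identity over 100 bases).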

Additional observations from a re-analysis of the deposited data

Results flagged for a closer look

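For 3 genes linked to interferon gamma, the difference labelled as DSS was not the same with and without exosomes by edgeR's interaction test. Cxcl10 had an interaction of 16.68 on the log2 scale (SE 2.66, adjusted p = 0.00920), from 8.46 for ExDSS against Ex and -8.22 for PC against NC. Gbp5 had 11.23 (SE 2.23, edgeR adjusted p = 0.0306), from 6.06 and -5.17. Cxcl9 had 10.95 (SE 2.28, edgeR adjusted p = 0.0396), from 4.73 and -6.23. None of the 38 genes passed this test, while 3 of the 5 neutrophil markers did, all positive (0.288% of all genes). The summed level of the 5 was high in NC and ExDSS and low in PC and Ex, against the labels. The interaction rests on the labels as given, and whether labels were exchanged was not tested. With 1 library left out, edgeR called 0 of all genes without NC 1 or NC 2, 1 without PC 1, 7 without Ex 2, 14 without ExDSS 1, 23 without ExDSS 2, 29 without PC 2 and 1663 without Ex 1. Each such fit also has 1 residual degree of freedom fewer.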

How the results depend on the processing

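The members called out of 38 depended on the tool and on single libraries. Percentages are the share of all genes called by the same rule. DESeq2 called 1 for PC against NC (0.674%), 7 for ExDSS against PC (10.2%), 6 for Ex against NC (3.55%), 14 for ExDSS against Ex (14%), 15 in the interaction (11.3%) and 10 of 35 in the joint test over groups (8.25%). limma-voom called 3 for ExDSS against PC (7.96%), 2 for ExDSS against Ex (3.47%) and 6 in the interaction (2.24%). In the interaction edgeR called 6 without the filter on low counts (1.89%; 1 in the joint test, 1.91%), 1 with RLE size factors (0.46%) and 1 without robust fitting (0.281%). Leaving out 1 library gave 0 calls except without Ex 1, so that the range was 0 to 15 for Ex against NC (10.4% without Ex 1) and for ExDSS against Ex (12.2%), 0 to 3 for Ex against PC (7.25%), 0 to 18 in the interaction (10.8%) and 0 to 7 in the joint test (2.73%). With NC 2, ExDSS 1 and Ex 2 all left out, an alternative added after seeing the data that rests on 1 residual degree of freedom from the PC libraries, edgeR called 36 for PC against NC (25.7%), 31 for ExDSS against PC (70.5%), 33 for Ex against NC (23.7%), 30 for ExDSS against Ex (64.8%), 34 in the interaction (63.5%), 19 for ExDSS against NC (58.7%) and 37 in the joint test (74%). The cause of these differences was not tested.

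Deviations of replicate 1 from the group mean had correlations of -0.20 to 0.05 between groups. The uneven libraries Ex 2, NC 2 and ExDSS 1 enter these values, so they cannot show whether replicate numbers pair the libraries. With the replicate number as a block, 1 member (Isg15) was called in the interaction, where calls over all genes went from 42 to 161, and Oas3 for PC against NC turned to 0.48. By limma-voom it was 1.29. Over libraries left out in turn, the fitted value of Oas3 ran from -2.23 to 6.23 for PC against NC, and that of Mx1 from -2.92 to 1.13. For Ex against NC, Oas3 ran from -7.56 to 2.91, but with 1 count in Ex it allows no ratio. Each turned without NC 1, which leaves NC 2 alone in its group. There Oas3 had no count, so its 6.23 and 2.91 are no estimates of size. Mx1 had 0.573 CPM in NC 2, below the 1.89 and 0.628 of PC. In the alternatives that left out no single library, each fold change of a gene given in full was counted once per alternative. Of these values, 716 kept their direction and side of the threshold. Apart from the turns of Oas3, the rest kept their direction and passed the threshold. Many of those came from the fit without NC 2, ExDSS 1 and Ex 2, which rests on 1 residual degree of freedom. Scalings moved the all-gene median to between -0.91 and -0.36 for ExDSS against PC and between 0.09 and 0.29 for PC against NC. The members' median minus this ran from 2.08 to 2.31 and from -1.70 to -1.64. Depth limits Ex 2, where 37 of the 38 genes had under 10 counts.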

Other observations

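Among the 38 genes, those with longer transcripts had a lower ratio of NC 2 to NC 1. Spearman's rho of transcript length with the log ratio was -0.49 over the 38 genes, against -0.08 over all 14567 genes tested. Against NC 1, ExDSS 1 gave -0.43 and ExDSS 2 gave -0.54, each against -0.08 over all genes. The 3 larger values share NC 1. Between ExDSS 1 and ExDSS 2 rho was -0.01 over the 38 genes and over all genes, and between PC 2 and PC 1 it was -0.13 over the 38. These values describe genes of the same libraries, which are not independent, and carry no p.

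Genes were also divided by the presence of an ISRE match in their promoter window, with no test. For PC against NC the median log2 fold change was -1.25 over the 13 genes with a match and -1.31 over the 15 without one. For ExDSS against PC it was 2.03 and 1.25, and in the interaction 4.76 and 3.52. The 10 genes with no window had -2.02 for PC against NC.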
